A study of Mus musculus with 2 samples.

Results

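The clustered protocadherins are cell adhesion genes that stand in 3 neighbouring families, alpha, beta and gamma, on mouse chromosome 18. Binding of the zinc-finger protein CTCF at these genes was described in embryonic lung. The members were all GENCODE M21 protein-coding gene records on chromosome 18 whose symbol starts with Pcdha, Pcdhb or Pcdhg, which gave 57 of the 21938 protein-coding genes on chromosomes 1 to 19, X and Y. There were 14 alpha, 22 beta and 21 gamma records, all on the plus strand. They carry 56 symbols, because 2 records share the symbol Pcdha11 and are told apart here by their Ensembl identifiers. The record Pcdhgb8 is annotated as a polymorphic pseudogene and was therefore not a member.

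CTCF chromatin immunoprecipitation sequencing (ChIP-seq) was performed on lungs of B6NCrl mouse embryos of both sexes at day 14.5. The 2 replicates form 1 group, so no condition was compared. Tissue from several dissections had been pooled and ground. Since the labels give 1 biosample and 1 donor record for both replicates, differences between them may be technical only. In bulk tissue, strong binding in few cells and weak binding in many cells cannot be told apart.

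Each alpha and gamma protocadherin joins its own large variable first exon, which has its own promoter, to constant exons shared by its family, whereas most beta genes consist of a single coding exon. In neurons, each cell is known to use a small set of these promoters, and the resulting surface proteins let a cell tell its own branches from those of others. CTCF is known to bind promoters and exons of these genes and, together with cohesin, to bring promoters close to distant enhancers, with the strands of the CTCF motifs facing each other at the ends of the loop.

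A site was the summit of a peak in the optimal list, the authors' list of peaks that passed their filter on reproducibility. A transcription start site (TSS) site was a summit within 1 kb of the 5′ end of a gene. Signal is the authors' value for the peak, in the unit of their peak caller, and percentiles were taken within a list from weakest to strongest. The replicate signal of a site is that of the strongest replicate peak holding its summit. Replicate percentiles of single sites rank these signals among the optimal sites with such a peak, not within the full replicate list. The motif used for strands was learned from the strongest 3000 sites on odd-numbered autosomes and is shown because the orientation results rest on it. Its consensus is given 5′ to 3′, with capitals where a position carries at least 1 bit of information.
CTCF consensus: tggCCAccAGggGGCactag
A site had a motif when a window within 50 bp of the summit scored above 12.37 log2 odds, a threshold passed by 1% of windows shifted by 1 kb. With this rule 58.0% of all 54943 sites had a motif.

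More members than not had CTCF at the TSS. A TSS site was found at 37 of 57 members (64.9%, 95% Wilson interval 51.9 to 76.0%), against 26.6% of all protein-coding genes. In the gamma family 19 of 21 members had one, or 90.5% (71.1 to 97.3%). The alpha family had 8 of 14, or 57.1% (32.6 to 78.6%), and the beta family 10 of 22, or 45.5% (26.9 to 65.3%). Members share a cluster and much of their sequence, so they are not independent, and these intervals cover counting error only. The sites were weak for promoters: the median signal was 33.2 at member TSS sites and 55.5 at the TSS sites of all 5837 protein-coding genes that had one. In percentiles of the optimal list these medians were 28.1 and 46.3. A peak of the stricter conservative list held 28 of the 37 member sites, against 85.0% of all protein-coding TSS sites. None of the 37 was among the strongest 10000 sites, where 16.1% of protein-coding TSS sites stood.

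The count of members with a TSS site depended on how strict the list was. It was 31 in the conservative list, against 25.4% of protein-coding genes, and 32 among equally many of the strongest pooled peaks, against 26.5%. It was 33 without replicate 1 and 32 without replicate 2, against 26.9% and 27.3%. With the strongest 10000 sites it was 0, against 4.28%. Summits within 500 bp gave 35 members, against 20%, and within 2 kb 37, against 33.1%. The 31 members of the conservative list have any of that list's own summits within 1 kb. The 28 given above are optimal summits that lie inside a conservative peak.

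**Figure D1:**
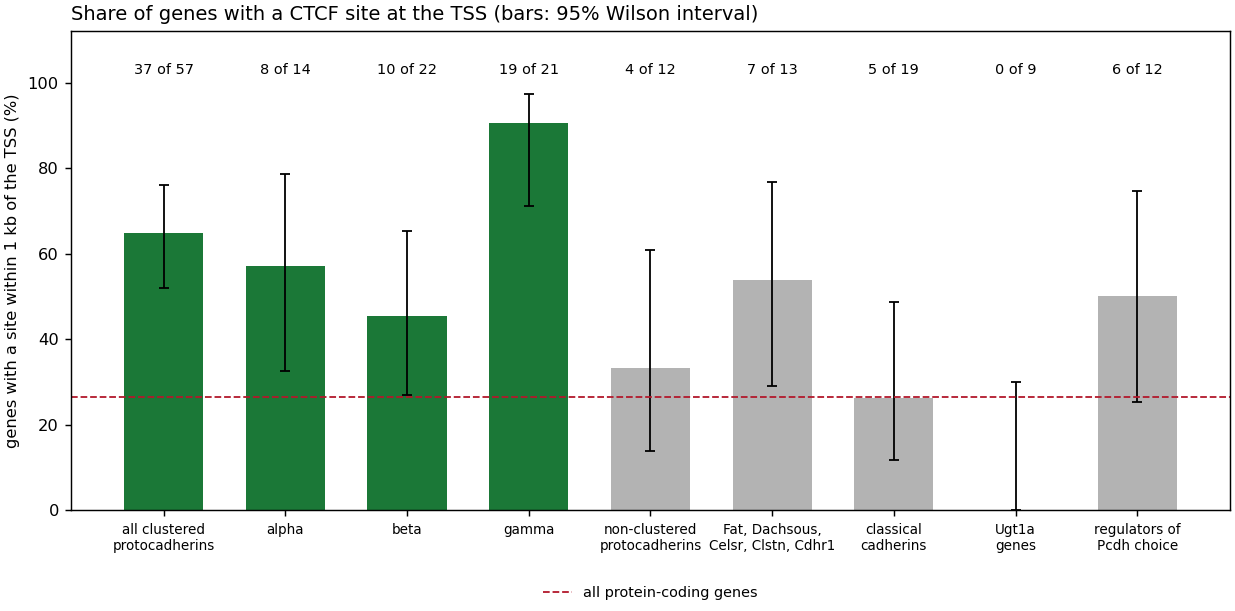
Share of genes (%) with a CTCF site within 1 kb of the TSS, for all clustered protocadherins, each family and 5 comparison lists; bars show the share, error bars the 95% Wilson interval and the dashed line all protein-coding genes (26.6%). The gamma bar stands highest, at 90.5%, and the Ugt1a bar is at 0.

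The gamma A and gamma B genes, the main isoform types of the gamma family, had a TSS site without exception, 12 of 12 and 6 of 6. The gamma family also had the highest median signal, 45.7 (24.3 to 139), against 26.8 (15.8 to 156) in alpha and 23.5 (15.6 to 52.6) in beta. Pcdhgc3, a C-type isoform, had the strongest gamma site, at a signal of 139 (76.6 and 64.1 in replicates 1 and 2). Pcdhgb7 followed with 138 (67.6 and 71.3), and Pcdhgb6 with 129 (72.8 and 54.1). These 3 sites lay between percentiles 68.2 and 75.8 of the optimal sites in both replicates. The weakest gamma sites were those of Pcdhga9 at 24.3 (8.0 and 10.4), Pcdhga8 at 24.8 (15.5 and 11.5) and Pcdhgb2 at 28.5 (16.4 and 11.8).

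Signal was unevenly spread along the gamma family. The last 6 members with a site, from Pcdhgb6 to Pcdhgc3, had signals of 58.6 to 139 with a median of 113. The first 13, from Pcdhga1 to Pcdhga9, had 24.3 to 67.7 with a median of 36.0. The ranges overlapped, since Pcdhga10 at 58.6 lay below Pcdhga3 at 67.7 and Pcdhga6 at 62.8. In replicate 1 the medians of the last 6 and first 13 were 59.8 and 19.5, and in replicate 2 they were 49.98 and 15.3. This split was chosen after the values were seen and is a description without a test. Spearman's rho between gene order and signal was 0.48 over the 19 gamma sites, 0.50 over 8 alpha sites and 0.13 over 10 beta sites, where sites share libraries and neighbouring sequence. Members without a site were left out of these values. Among them are Pcdhac2, the last alpha gene, and Pcdhgc4 and Pcdhgc5, the last gamma genes. The values therefore do not describe a rise up to the ends of these families.

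**Figure D2:**
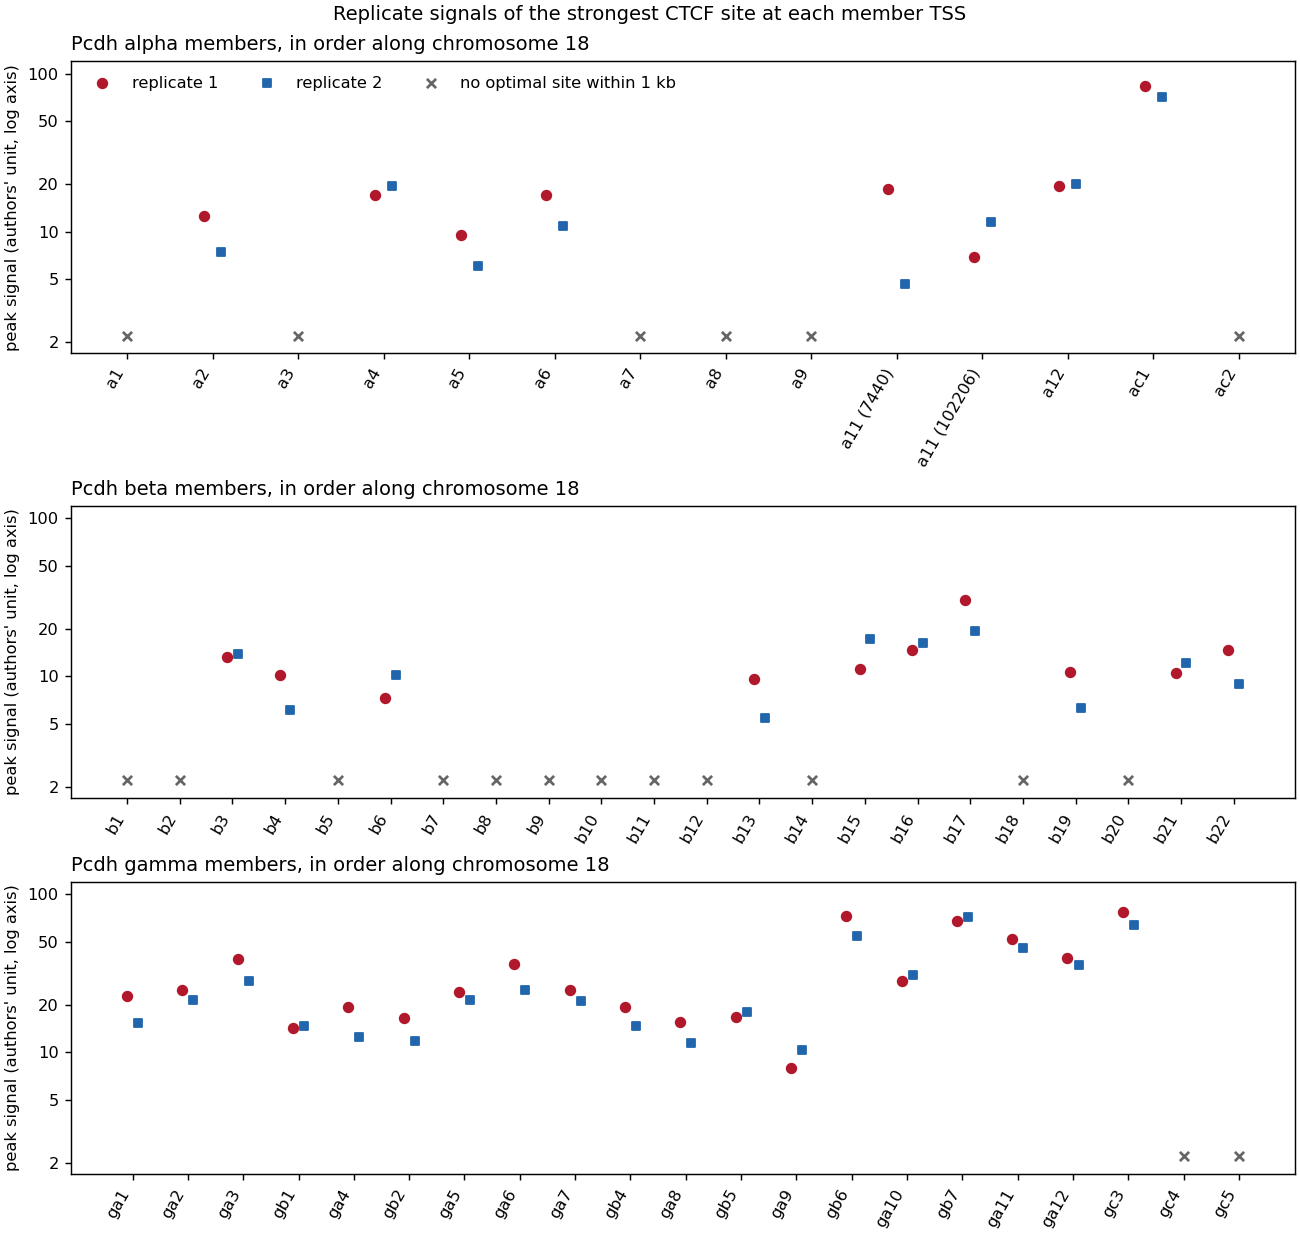
Signal (log axis, authors' unit) of the strongest TSS site of each member in replicate 1 (circles) and replicate 2 (squares), in gene order, with crosses for members without a site and names shortened by dropping Pcdh. Pcdhac1, at 83.7 and 71.2, stands above the other alpha members, and the signals from Pcdhgb6 to Pcdhgc3 are high within gamma.

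The 5 C-type genes, which are used more evenly across neurons than the other isoforms, fell on both sides. Pcdhac1 had the strongest TSS site of all members, a peak at chr18:37089875-37090048 (mm10) with a signal of 156 and 83.7 and 71.2 in the replicates. Its summit lay 49 bp before the TSS. Pcdhac2, Pcdhgc4 and Pcdhgc5 had no TSS site. Only weak replicate peaks were near them: 6.0 in replicate 1 for Pcdhac2, 3.72 in replicate 1 for Pcdhgc4 and 4.90 in replicate 2 for Pcdhgc5, with none in the other replicate. The promoters of Pcdhac1 and Pcdhgc3 were also the most GC-rich of their families, at 60.7% and 62.0%, against a member median of 39.7% and a median of 55.0% over 21931 protein-coding promoters. The promoter here is 250 bases before to 50 after the TSS.

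Among the remaining alpha genes, whose promoters neurons are known to choose at random, the strongest sites were those of Pcdha12 at 41.9 (19.4 and 20.02 in replicates 1 and 2) and Pcdha4 at 36.5 (17.2 and 19.6). The weakest were Pcdha5 at 15.8 (9.56 and 6.03), the Pcdha11 record ENSMUSG00000102206 at 19.4 (6.95 and 11.6) and Pcdha2 at 20.2 (12.5 and 7.41). All of these lay at or below percentile 38.7 in both replicates. Pcdha12 was the 1 member with a second TSS site, of signal 24.997, while 3.66% of protein-coding genes had 2 or more.

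The beta sites were weak, and none reached the median signal of the optimal list. Pcdhb17 was the strongest at 52.6 (30.5 and 19.3), followed by Pcdhb16 at 31.5 (14.8 and 16.2) and Pcdhb15 at 30.2 (11.1 and 17.3). Pcdhb13 at 15.6 (9.61 and 5.46), Pcdhb19 at 16.6 (10.7 and 6.34) and Pcdhb6 at 16.8 (7.32 and 10.2) were the weakest. Pcdhb1, the first beta gene, had no site, no replicate 1 peak and a replicate 2 peak of 3.23.

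The 20 members without a TSS site were Pcdha1, Pcdha3, Pcdha7, Pcdha8, Pcdha9, Pcdhac2, Pcdhb1, Pcdhb2, Pcdhb5, Pcdhb7 to Pcdhb12, Pcdhb14, Pcdhb18, Pcdhb20, Pcdhgc4 and Pcdhgc5. Most had a peak in the unfiltered replicate lists of 300000 peaks, and not all of these were weaker than those of members with a site. Replicate 1 had a peak within 1 kb at 16 of 20 (signal 3.72 to 14.4, median 8.61), and replicate 2 likewise at 16 of 20 (2.99 to 12.3, median 5.76). Both had one at 12 of 20, against 32.6% of protein-coding genes without a site. Over all members both had one at 49 of 57, against 50.4% of protein-coding genes. At the members with a site the median replicate signals were higher, 17.2 and 15.3. Pcdhb10 had 10.6 and 12.3 in replicates 1 and 2, above the 9.61 and 5.46 of Pcdhb13, which had a site. Pcdha7 had 7.92 and 10.503. Absence from the optimal list is therefore not absence of a peak.

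Measured from the start codon, the sites fell into narrow bands. Of the 37 strongest sites, 33 lay before the start codon, all at distances of -268 to -171 bp from it, with a median of -229 bp. A summit 150 to 300 bp before the start codon was found at 11.2% of protein-coding TSS sites. All 10 beta and all 19 gamma sites were in this band. Pcdhb17, Pcdhb22 and Pcdhga12 have annotated TSSs far upstream, and their summits lay 144, 384 and 326 bp after the TSS but at -220, -226 and -211 bp from the start codon. Relative to the TSS, 30 of 37 summits lay upstream, against 55.6% of protein-coding TSS sites. The start codon was chosen as a landmark after the values were seen.

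The 4 remaining sites were all alpha. Those of Pcdha4, Pcdha5, Pcdha6 and Pcdha12 lay in the variable exon, 448 to 459 bp after the start codon. The second Pcdha12 site lay at -205 bp from the start codon, so this gene had both positions occupied. Its signals there were 11.3 and 13.2 in replicates 1 and 2.

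**Figure D3:**
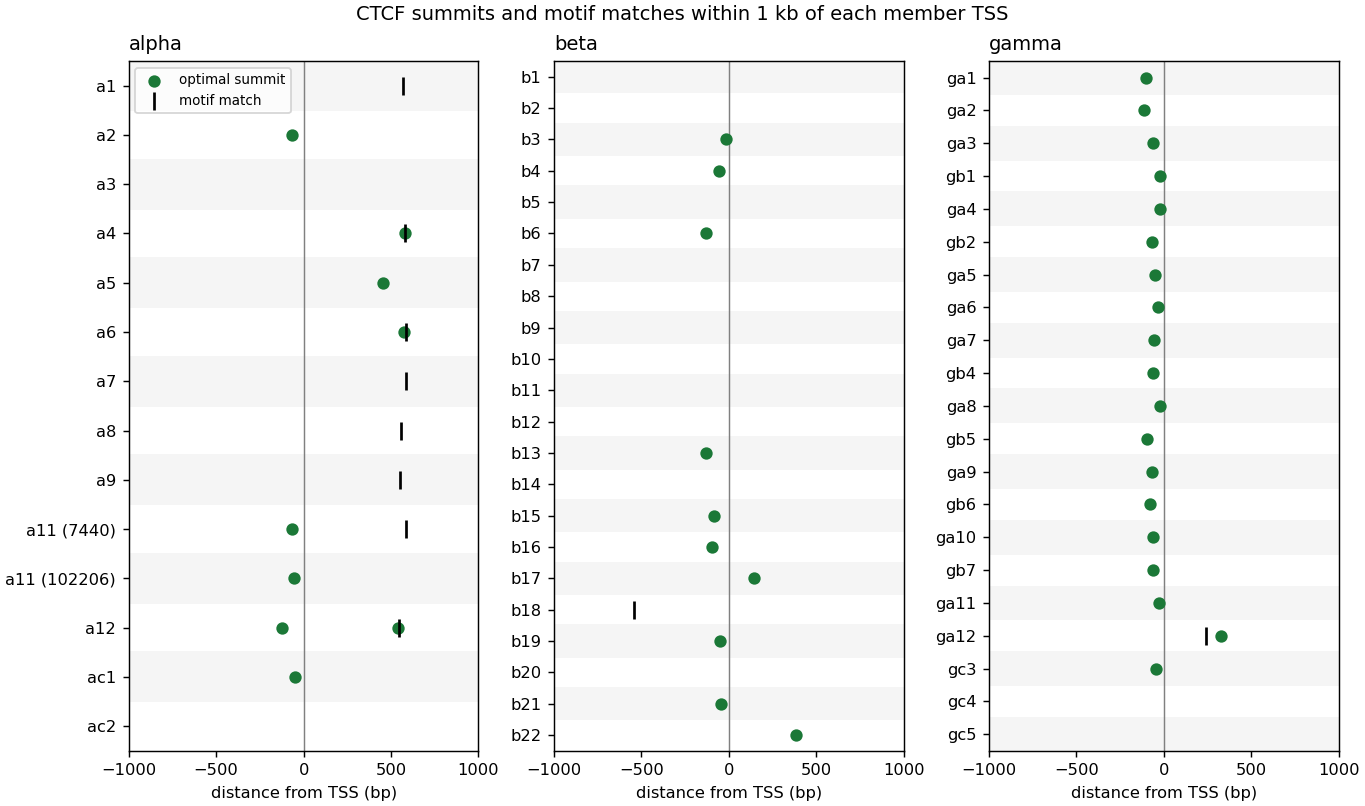
Summits of optimal sites (circles) and motif matches (bars) within 1 kb of each member TSS, plotted by distance from the TSS in bp, with names shortened by dropping Pcdh. Most summits lie just before the TSS, and alpha motif matches line up 544 to 588 bp after it.

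A summit lay in the variable exon, taken as the exon with the start codon, at 10 of 57 members, against 5.67% of protein-coding genes and 16.7% where that exon spans 2 kb or more. With any overlap of the peak in place of the summit the count was 36 of 57. The share of all protein-coding genes was not computed for that rule. It also counts TSS peaks that reach into an exon starting at the TSS, such as that of Pcdha2. The 10 members with a summit in the exon were Pcdha4, Pcdha5, Pcdha6, Pcdha12, Pcdhb14, Pcdhb17, Pcdhb21, Pcdhb22, Pcdhga12 and Pcdhgc3. They shared 9 sites, because the Pcdhb22 site lies in overlapping exons of Pcdhb21 and Pcdhb22. Those of Pcdhb17, Pcdhb22 and Pcdhga12 were the TSS sites described above, before the start codon at -220, -226 and -211 bp from it. Pcdhgc3 had its exon site 2419 bp after the start codon, with a signal of 75.8 (36.3 and 39.5). The Pcdhb14 site, 2220 bp after the TSS, had a signal of 16.1 and a replicate 1 signal of 12.4, and no replicate 2 peak held its summit.

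A match to the motif was rare at the TSS sites. It was present at 3 of 37 member TSS sites (8.11%), those of Pcdha4, Pcdha6 and Pcdha12, against 28.2% of protein-coding TSS sites. These matches lay in the variable exons, 544 to 588 bp after the TSS, and with summits limited to 500 bp from the TSS the share was 0%. As a share of genes, that is 3 of 57 members, against 7.5% of protein-coding genes. All 3 matches were on the strand of the gene, against 60.5% of motif-bearing protein-coding TSS sites. Pcdha5 at 12.2, Pcdha2 at 11.98 and Pcdhb16 at 11.97 scored just under the threshold, and Pcdha12 at 15.8 was the nearest above. With thresholds passed by 5% and 10% of shifted windows, added after the data were seen, a motif was present at 18 of 37 and 23 of 37, against 59.7% and 71.6% of protein-coding TSS sites. All of these were on the strand of the gene, against 57.3% and 56.9%.

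The best-scoring window at each site, whatever its score, also lay on the strand of the gene at 35 of 37 members, against 55.6% of protein-coding TSS sites. The exceptions were Pcdhga8 and Pcdhga9. Scores differed by family: the median best score was 12.1 log2 odds in alpha, 8.60 in beta and -0.82 in gamma, and 7.86 over all protein-coding TSS sites. Of the 3 families, gamma had the highest median signal and the lowest median score. Even Pcdhac1, with the highest signal, scored only 8.70.

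Shorter letters were common. The string CGCT, a core known from these promoters, was searched in the 150 bp before the TSS and stood on the strand of the gene at 47 of 57 members, against 34.4% of protein-coding genes. On the opposite strand it stood at 18 of 57, against 34.6%. The 10 members without the string on their own strand included Pcdhb17, Pcdhb22 and Pcdhga12, whose annotated TSSs lie far upstream. Their summits lay after the TSS, outside the bases searched. All 18 gamma members with the string had a site, while 5 of 11 alpha and 11 of 18 beta members with it had none. Of all protein-coding genes with the string, 38.2% had a site, and 19 of 21 gamma members had one with or without it. This search was chosen with the data known, and a match is not by itself a binding site.

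The alpha exons carried matches whether or not a site was called. A match stood in the variable exon of 8 of 14 alpha members, 463 to 553 bp after the start codon and always on the strand of the gene. Scores ran between 13.2 and 22.1. An optimal site lay within 100 bp of 3 of these 8, a replicate 1 peak of 5, a replicate 2 peak of 6 and both of 4. In the other families a match stood in the variable exon of 2 of 22 beta and 2 of 21 gamma members. Shares over all protein-coding genes were not computed for matches in this exon. Pcdha1 had the highest score, 22.1, yet no site, with a replicate 2 peak of 6.13 and none in replicate 1. Over all families, 10 of 57 members had a match within 1 kb of the TSS, against 15% of protein-coding genes, and 5 of these 10 had a site, against 62.8% of such genes.

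From 100 kb before the first member to 100 kb after the last there were 54 sites, of which 38 were the TSS sites of members. The gamma variable region held 22, or 13.6 per 100 kb, against 4.14 in the alpha variable region, 4.22 among the beta genes and 2.02 over the genome. The median gap between gamma variable sites was 5376 bp. The alpha constant region and the upstream flank had no site.

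The sites away from member TSSs had a higher median signal, and the motifs among them were mostly on the strand opposite to the genes. The 38 TSS sites had a median signal of 32.3 and 3 motifs, all on the plus strand. The 16 others had a median of 106 and 9 motifs, 8 on the minus strand and 1 on the plus strand, while 7 had no motif. Over the genome 49.7% of motifs were on the plus strand. Of these 16, 4 were among the strongest 10000 sites, against 18.2% of all sites.

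**Figure D4:**
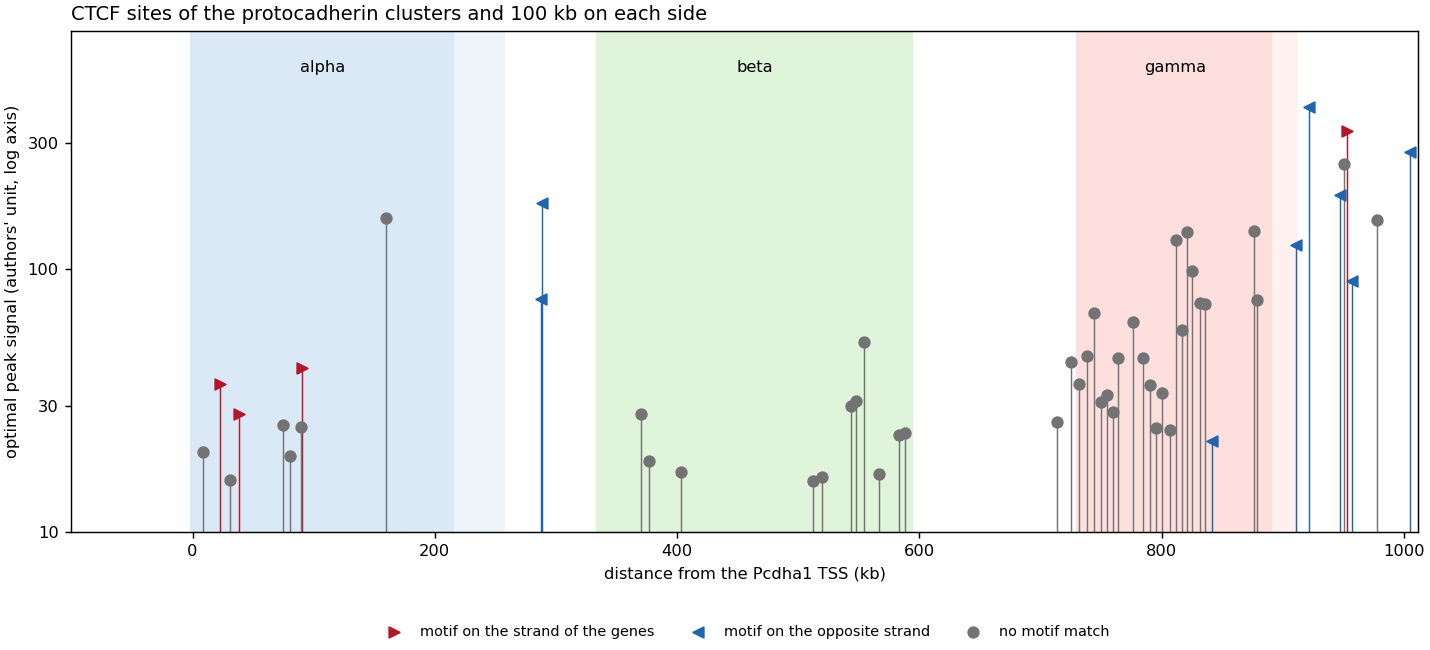
Signal (log axis, authors' unit) of the 54 sites by distance in kb from the Pcdha1 TSS, with families shaded and constant regions paler; triangles give the motif strand and circles sites without a motif. Minus-strand motifs stand at the pair after alpha, inside and at the end of gamma, and beyond it.

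Between alpha and beta, where the alpha enhancer known as HS5-1 has been described, stood a pair of sites 953 bp apart, both with minus-strand motifs. No annotation used here gives the enhancer's position. The first, at chr18:37217336-37217625, had a signal of 76.8 (37.8 and 38.4 in replicates 1 and 2). The second, at chr18:37218319-37218511, had 177 (99.4 and 78.6), the strongest between the first member and the last. The TSS nearest to both was that of Gm10544.

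Between beta and gamma were 2 sites without a motif. One lay 22 bp before the TSS of Taf7, which encodes a subunit of the general transcription factor TFIID, with a signal of 26.1 (17.2 and 7.33). The other lay 132 bp after the TSS of 3222401L13Rik, with 44.2 (25.2 and 18.4). Within the gamma variable region the Pcdhgb8 pseudogene had a site of 73.8 (47.2 and 30.2) 121 bp before its TSS. The 19 gamma members had theirs at -115 to 326 bp from the TSS.

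The gamma constant region had 1 site, with a signal of 123 and a minus-strand motif scoring 24.1. No replicate 1 peak held its summit, and its signal in replicate 2 was 48.3. Its nearest TSS was that of Gm29994.

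The 100 kb after gamma, where further enhancers of the clusters are known, held 7 sites with signals of 89.9 to 411. All but the last, which lay just before the TSS of Diaph1, were within that gene. The strongest, nearest to the TSS of Mir6979, had 411 (221 and 192), a rank of 333 among all sites, and a minus-strand motif. Another had 335 (188 and 147) and the only plus-strand motif of the 16. A site 199 bp before the TSS of Diaph1, a formin that nucleates actin filaments, had 277 (151 and 126) and a minus-strand motif. Between alpha and beta and in this flank together, 6 of 7 motifs were on the minus strand, and with the gamma constant site 7 of 8. Without that site, the count was 7 of 7 when the motif was sought within 100 bp of the summit, 6 of 8 at the 5% and 10% thresholds, 2 of 2 at the 0.1% threshold and 2 of 3 among the strongest 10000 sites.

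Replicate signals of the member sites were ranked alike, but less closely than those of all optimal sites. Since the optimal list had passed a filter on reproducibility, agreement between replicates is partly built in. All 38 TSS sites had a peak in both lists, with a Spearman's rho of 0.847, against 0.942 over the 53741 optimal sites found in both. The median gap in percentile between replicates was 6.997 at member sites and 4.68 over all sites. The gap was widest for the Pcdha11 record ENSMUSG00000007440, with 18.6 and 4.63 in replicates 1 and 2. Among the optimal sites these were percentiles 28.2 and 1.25, while in the full lists of 300000 peaks they ranked 39594 and 108381. The next widest gaps were those of Pcdhb15, with percentiles 10.1 and 33.4, and the Pcdha11 record ENSMUSG00000102206, with 2.03 and 18.7. None of these 3 was held in a conservative peak.

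**Figure D5:**
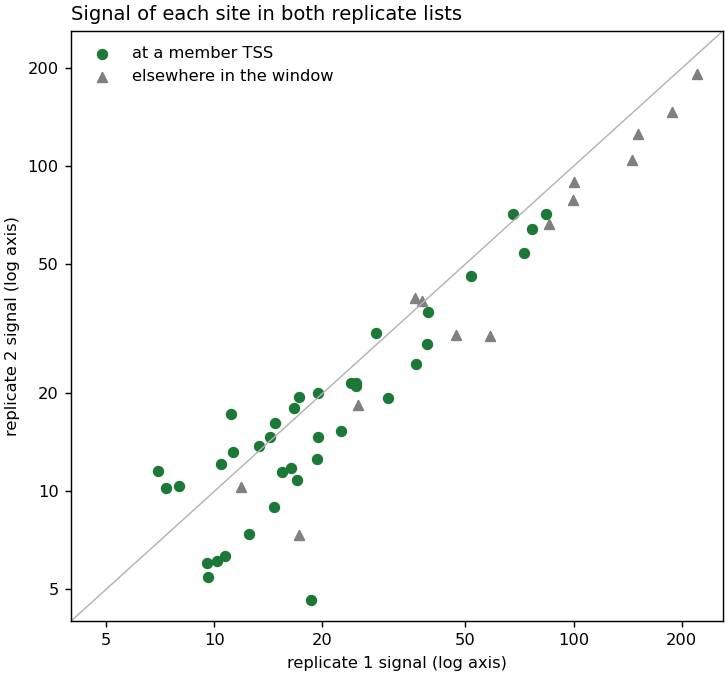
Signal of each site in replicate 1 (x, log axis) and replicate 2 (y, log axis), for sites at member TSSs (circles) and elsewhere in the window (triangles), with the line of equal signal. Scatter is widest at low signal, where the Pcdha11 record at 18.6 and 4.63 stands apart.

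Related genes were counted the same way. Non-clustered protocadherins had a TSS site at 4 of 12 (33.3%, 13.8 to 60.9%), led by Pcdh1 with a signal of 423. Fat, Dachsous, Celsr, calsyntenin and Cdhr1 genes had 7 of 13 (53.8%, 29.1 to 76.8%), and classical cadherins 5 of 19 (26.3%, 11.8 to 48.8%). The Ugt1a genes, which also splice alternative first exons to shared exons, had none of 9, with an upper Wilson bound of 29.9%. Genes known to regulate protocadherin choice had 6 of 12 (95% Wilson interval 25.4 to 74.6%). No test was made between these lists.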

How the data were processed

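CTCF ChIP-seq peaks came from 2 replicates of embryonic lung. Per the deposited README, alignments of each replicate and 1 shared control gave the replicate lists, from which, with the pooled list, came the optimal and conservative ones. The genome build is mm10, per the labels. For the aligner, peak caller and settings of the reproducibility filter, names and versions were not given in the sources used. The signal was deposited by the authors as the peak caller gave it, unscaled between lists. The deposited −log10 q values and the score were not used to rank sites. Summit offsets were used as deposited. Depth is unknown, since no list gives reads per peak.

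Genes were GENCODE M21 and sequence GRCm38 patch 6. Summits, motifs and shares were computed with Python 3.11.15, pandas 2.3.3, numpy 2.4.6, scipy 1.17.1 and pysam 0.24.0. The motif search was tested on simulated data. Members and lists were chosen with earlier results of these data known. Named were the 3 strongest and 3 weakest sites of each family, C-type genes, Pcdhb1, members without a site, the 3 widest replicate gaps and the 3 strongest sites of each other region. No test was made, because there is 1 group. Alternatives changed the list, windows, TSS definition and motif threshold. No chromosome 18 sequence is printed.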

Additional observations from a re-analysis of the deposited data

How the results depend on the processing

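A count was taken as unmoved within 1.5 times its value, a share within its Wilson interval and the median percentile within 1 SD of the replicates. Among the whole-set results 46 recomputed values were unmoved and 12 moved, and among the family counts 23 and 4. The share intervals are wide where few motifs were counted. With the strongest 10000 sites, members with a TSS site numbered 0, those with a variable exon site 0 and sites in the window 4. Counting peak overlap in place of the summit gave 36 members with a variable exon site, TSS peaks that reach into the exon included. The motif share of TSS sites was 0% with a 500 bp window and at the 0.1% threshold, and 48.6% and 62.2% at the 5% and 10% thresholds, which were chosen after seeing the data. Between alpha and beta and after gamma, 100% of motifs were on the minus strand with a 100 bp motif window and at the 0.1% threshold, 66.7% among the strongest 10000 sites and 75% at the 5% and 10% thresholds. The median percentile was 31.3 among the strongest pooled peaks. Leaving out 1 replicate gave 32 to 33 members with a TSS site, 10 to 11 with a variable exon site, 49 window sites, a motif share of 9.38 to 12.1% and a median percentile of 29.6 to 33.9, the highest without replicate 1. In the conservative list 6 beta members had a TSS site. The causes were not tested. The motif strand of TSS sites could not be computed where no site or motif was left (strongest 10000, 500 bp window, 0.1% threshold). No paired analysis was possible because there is only 1 group. Depth is unknown, so weak sites cannot be weighed against read number.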
